A study of Mus musculus with 24 samples.

Results

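Klf2, Klf5, Tbx3, Tfcp2l1, Nr0b1, Nr5a2, Prdm14, Dppa3 and Tcl1 encode factors of the naive pluripotency network outside its core of Pou5f1, Sox2 and Nanog. These 9 genes were taken by symbol from the 24594 genes of the counts table, and all 9 were among the 15682 genes that passed the filter on low counts. Their mRNA was measured by RNA-seq in 24 libraries of mouse embryonic stem cells (mESCs) of 129S6/SvEvTac background, grown with serum and leukemia inhibitory factor (LIF) and with no other treatment. The question put to these libraries was how the loss of 1 accessory subunit of an ISWI chromatin remodeling complex changes each gene. Batch A held 2 wild-type (WT) libraries, 2 of Rsf1Δ and 2 of WstfΔ (Baz1b). Batches B, C and E each held 2 WT libraries and 2 of a deletion line, which was Tip5Δ (Baz2a) in B, BptfΔ in C and Acf1Δ (Baz1a) in E. Batch D held 3 WT libraries and 3 labelled Cecr2Δ. Each deletion was made by CRISPR–Cas9 and each line is 1 clone, so a property of the clone and an effect of the lost subunit cannot be told apart. The Acf1Δ line went through a further round of targeting, aimed at another isoform. The study's methods call the replicates independent, while the labels name no cultures, and p-values measure the spread between these libraries.

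Naive pluripotency is the state of the preimplantation epiblast, which mESCs hold in culture when LIF signals through STAT3. Klf4, Klf2 and Klf5 are zinc finger activators that can stand in for one another, Tbx3 is a T-box repressor and activator linked to PI3K signalling and to LIF, and Tfcp2l1 is a STAT3 target that sustains self-renewal. Nr5a2 (LRH-1) is an orphan nuclear receptor that binds the Pou5f1 regulatory region, and Nr0b1 (DAX1) is a nuclear receptor without the usual DNA-binding domain that represses other factors, Nr5a2 among them. Prdm14 represses FGF signalling and the de novo DNA methyltransferases, Dppa3 (Stella, PGC7) is a maternal factor that protects DNA from methylation and limits UHRF1, and Tcl1 is a cofactor of AKT kinase. When cells leave the naive state these mRNAs fall and formative genes such as Fgf5, Otx2 and Dnmt3b rise.

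In mm10 (GRCm38), Klf2 (gene ID 16598) lies on chromosome 8 from 72319062 to 72321654, Klf5 (12224) on chromosome 14 from 99298691 to 99313412, and Tbx3 (21386) on chromosome 5 from 119670534 to 119684724. Chromosome 1 holds Tfcp2l1 (81879) from 118627923 to 118685168, Nr5a2 (26424) from 136842562 to 136960448 and Prdm14 (383491) from 13113428 to 13127163. Nr0b1 (11614) lies on chromosome X from 86191775 to 86195947, Dppa3 (73708) on chromosome 6 from 122626424 to 122630271, and Tcl1 (21432) on chromosome 12 from 105216753 to 105222737. Tbx3 overlaps the antisense gene Tbx3os1, and Tfcp2l1 overlaps 3 small RNA genes or pseudogenes. Tcl1 has Tcl1b paralogues beside it and Dppa3 has a processed pseudogene on chromosome X, so reads of these 4 genes may include those of another gene. Tcl1, Dppa3 and the other 5 factors overlapped no annotated gene.

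Promoter sequence from RefSeq (GRCm38.p6) was at hand for Klf2, Tfcp2l1, Nr0b1, Nr5a2 and Tcl1. It is shown for Tfcp2l1 and Tcl1, which were called differentially expressed with a log2 fold change over 1 in both WstfΔ and BptfΔ, and for Nr0b1, which was not. Each sequence is the 250 bases before an annotated transcription start, read 5′ to 3′ along the gene's strand, and distances are counted from that start. For Tfcp2l1 the start lies slightly inside the bounds of the gene given above, so the last bases shown are within those bounds. Capitals mark matches on either strand to CCNCNCCC, a short form of the KLF family motif.
Tfcp2l1 (chr1:118627695-118627944, plus strand): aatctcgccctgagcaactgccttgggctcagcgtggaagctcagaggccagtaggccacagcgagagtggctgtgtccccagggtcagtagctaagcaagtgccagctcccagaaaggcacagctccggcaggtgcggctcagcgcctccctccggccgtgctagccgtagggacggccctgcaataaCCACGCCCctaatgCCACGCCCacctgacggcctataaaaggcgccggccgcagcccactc
Tcl1 (chr12:105222738-105222987, minus strand): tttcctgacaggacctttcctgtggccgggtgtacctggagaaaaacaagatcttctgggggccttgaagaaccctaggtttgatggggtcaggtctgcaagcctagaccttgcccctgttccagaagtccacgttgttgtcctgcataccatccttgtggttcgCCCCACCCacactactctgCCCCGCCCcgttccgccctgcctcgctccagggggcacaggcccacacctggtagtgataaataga
Nr0b1 (chrX:86191525-86191774, plus strand): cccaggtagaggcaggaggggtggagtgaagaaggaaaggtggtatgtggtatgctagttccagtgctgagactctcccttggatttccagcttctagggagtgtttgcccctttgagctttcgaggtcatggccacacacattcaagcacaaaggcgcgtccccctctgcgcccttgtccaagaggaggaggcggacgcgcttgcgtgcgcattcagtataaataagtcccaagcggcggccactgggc
Tfcp2l1 held 2 matches, at 61 and 47 bases before the start, and Tcl1 held 2, at 85 and 66 bases. Nr0b1 held 0. Klf2 and Nr5a2, like Nr0b1, were not called in any line at an absolute log2 fold change over 1. Klf2 had 4 matches that overlap in pairs. Of the 2 Nr5a2 windows, 1 held 4 matches, of which 2 overlap, and the other held 0. A match stood in 45.9% of the 32851 windows of this kind in the annotation, so a match is common. The nuclear receptor motif AAGGNCA, found in 17.5% of windows, was in 0 of these 6 windows, and the T-box motif GGTGTG, found in 16.3%, occurred once, 23 bases before the start of Tcl1. The motifs share no letters with one another in the windows shown. These are matches of letters and not evidence of binding, and a link between matches and changes was not tested.

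The libraries held between 13.4 and 36.7 M counts (M, mega), and a count of 3 corresponded to 0.0837 to 0.22 normalized CPM, which are counts brought to a common library size with TMM factors. All 7 ES cell markers (Pou5f1, Sox2, Nanog, Utf1, Tdgf1, Lin28a and Dppa5a) were detected in every group. At an adjusted p under 0.01, 2 were higher and 3 lower in BptfΔ, where Utf1 (-1.10) and Lin28a (-1.05) were past 2-fold and Tdgf1 was at -0.34. In WstfΔ 5 were higher and Lin28a was lower (-0.64). There were 5 higher and 1 lower in Rsf1Δ, 2 and 0 in Tip5Δ, 4 and 2 in Acf1Δ, and 4 and 0 for the Cecr2Δ label. The shares of all genes higher and lower, which stand beside every marker count here, were 7.45% and 13.1% in Rsf1Δ, 16.4% and 18.3% in WstfΔ, 2.84% and 6.23% in Tip5Δ, 21.4% and 20.2% in BptfΔ, 9.52% and 8.83% for the Cecr2Δ label and 15.1% and 16.7% in Acf1Δ. The mRNA of the targeted gene fell by 1.72 to 2.40 on the log2 scale in Rsf1Δ, WstfΔ, BptfΔ and Acf1Δ. The mRNA of other targeted genes moved too. In BptfΔ Baz1a was at -1.74 ± 0.07 (SE, adjusted p = 3.99e-17), a fold change like that in Acf1Δ (-1.72), and Cecr2 at -1.56 ± 0.09 (SE, adjusted p = 1.49e-13). Baz1a was also lower in WstfΔ (-0.83), Rsf1Δ (-0.64) and the libraries labelled Cecr2Δ (-0.47), and Baz2a was higher in WstfΔ (0.56). In Acf1Δ Rsf1 (-0.54), Baz2a (-0.42) and Bptf (-0.39) were lower. Baz2a in Tip5Δ had a log2 fold change of -0.26 ± 0.09 (SE, adjusted p = 0.0533), and Cecr2 in the libraries labelled Cecr2Δ was raised instead (0.37 ± 0.07, SE, adjusted p = 0.000154). The mRNA therefore does not check these labels, and the study's methods checked the clones by western blot and DNA sequencing. Markers of primitive endoderm, a cell type that arises at low frequency in serum cultures, changed with most lines. All 7 (Gata4, Gata6, Sox17, Sox7, Foxa2, Dab2 and Pdgfra) were lower in 5 of the 6 lines. Their summed level was 330–338 normalized CPM in WT of batch A against 139–147 in Rsf1Δ and 133–139 in WstfΔ, 333–353 against 73.1–80.2 in Tip5Δ, 145–153 against 13.9–14.4 in BptfΔ and 101–117 against 29.5–34.1 in the libraries labelled Cecr2Δ. In Acf1Δ 3 were higher and 1 lower, with a sum of 269–306 against 242–249. None of the 7 had a mean of 0 in any group. The part of these cells in the changes of the naive factors was not tested, and in bulk RNA fewer cells of a type and less RNA per cell cannot be told apart. Of 5 fibroblast markers 2 were tested, Col1a1 and Col1a2, and both were lower in Rsf1Δ, WstfΔ, Tip5Δ and Acf1Δ, 1 in BptfΔ and 0 for the Cecr2Δ label. Their list summed to at most 20.2 normalized CPM in a WT library and at most 8.28 in a deletion library, for example 1.24–1.6 in Acf1Δ against 12.3–13.1 and 5.47–8.28 in Tip5Δ against 20–20.2. Of 5 trophectoderm markers 4 were tested. Hand1 and Gata3 were lower in Rsf1Δ, WstfΔ and the libraries labelled Cecr2Δ, Gata3 in Acf1Δ and Cdx2 in BptfΔ, Eomes was higher in WstfΔ, and none passed in Tip5Δ. That list summed to at most 10.1. The part of fibroblast or trophectoderm cells was not tested.

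In the 11 WT libraries, the mRNAs of the 9 factors spanned more than 10-fold in level per kilobase of gene width. Nr0b1 averaged 75.4 ± 17.1 normalized CPM per kilobase (SD, n = 11), Tfcp2l1 at 71.4 ± 9.39, Klf5 at 71.3 ± 20.7 and Klf2 at 63.7 ± 12.9. The ranges of these 4 over the WT libraries overlapped, and no test between genes was run. They stood at percentile 94.7 or higher among the genes tested. Tcl1 followed at 28.1 ± 7.60 normalized CPM per kilobase, Tbx3 at 19.4 ± 4.98 and Nr5a2 at 17.7 ± 2.78. Tcl1 and Tbx3 overlapped in range, as did Tbx3 and Nr5a2. Prdm14 averaged 11.4 ± 1.90, and its range of 8.03–14.1 touched that of Nr5a2 (13.9–21.0). Dppa3 was lowest at 4.86 ± 0.87 normalized CPM per kilobase, near the middle of all genes tested (percentile 50.9), and its highest WT library (6.41) lay below the lowest of Prdm14.

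**Figure D1:**
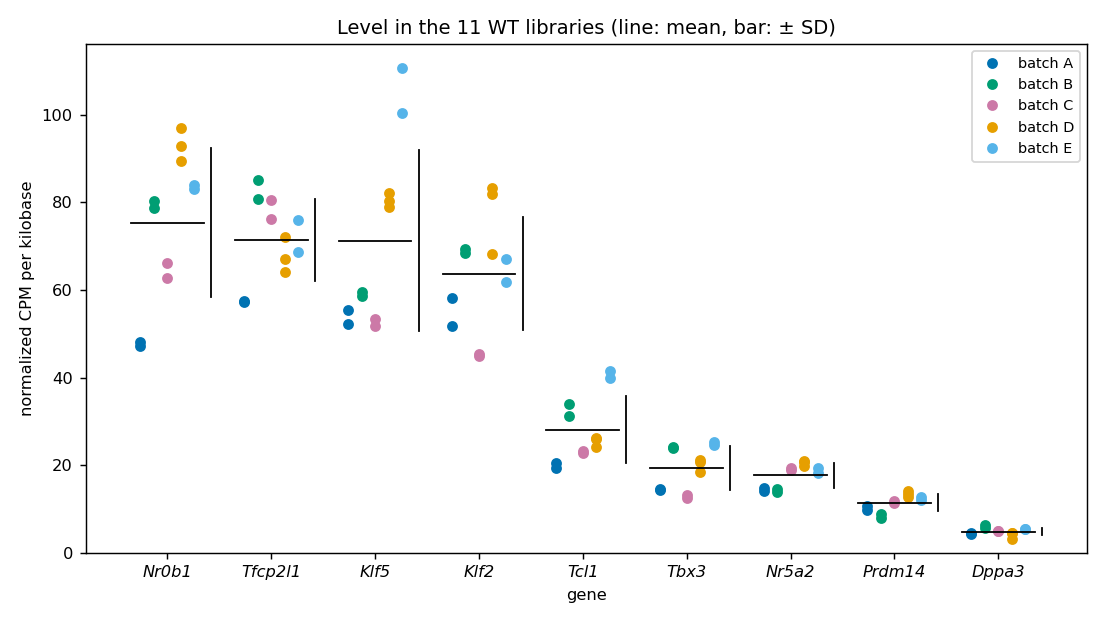
Level of each factor in the 11 WT libraries, in normalized CPM per kilobase of gene width (vertical axis, from 0), with genes ordered by their mean. Points are libraries coloured by batch, the horizontal line is the mean and the vertical bar ± 1 SD. The 2 batch E libraries stand above the others for Klf5 and Tcl1, and the batch A libraries stand lowest for Nr0b1.

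The WT level itself moved between batches. By an edgeR F test over the 5 batches, 8 of the 9 factors differed at an adjusted p under 0.01, where 73.1% of all genes did. The exception was Dppa3 (adjusted p = 0.0325). The ratio of the highest to the lowest batch mean ran from 1.44 for Nr5a2 to 2.05 for Tcl1, around the median of 1.62 over all genes. Klf5 averaged 274 normalized CPM in WT of batch C and 549 in WT of batch E, and Tbx3 68.99 and 134 in the same batches. Tfcp2l1, Nr0b1 and Tcl1 were lowest in WT of batch A, the controls of WstfΔ and Rsf1Δ, while Klf2, Klf5 and Tbx3 were lowest in WT of batch C, the controls of BptfΔ. Each line was therefore compared with the WT libraries of its own batch, and whether a line lay outside all 11 WT libraries is given beside the main changes. In WT of batch C, 145 genes were at least 10 times higher than in the other WT batches. How far levels of batch C, and so of BptfΔ, can be set against WT of other batches was not tested.

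Over the 54 comparisons of a factor with a line, 33 passed an adjusted p of 0.01, 24 of them higher and 9 lower than WT. A differentially expressed gene (DEG) here also had an absolute log2 fold change over 1. There were 11 such comparisons. The 7 that were higher were Tbx3, Tfcp2l1 and Tcl1 in WstfΔ and the same 3 genes with Prdm14 in BptfΔ, and the 4 that were lower were all Dppa3. In 29 of the 54 comparisons the line's mean fell between the lowest and the highest of all WT libraries, which included 11 of the 33 and 1 of the 11 DEGs, Tcl1 in WstfΔ. Over all genes and the 6 lines this held for 75.2% of comparisons, 48.3% of those past an adjusted p of 0.01 and 27.4% of DEGs.

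**Figure D2:**
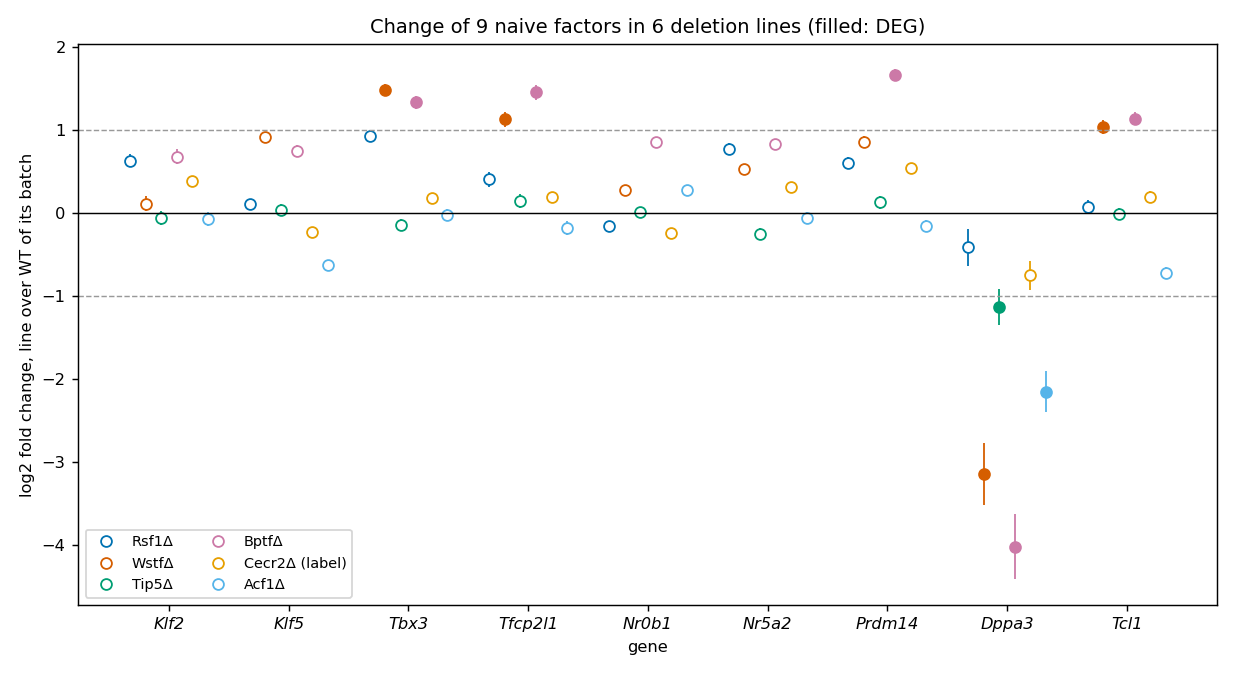
Log2 fold change of each factor in each line over the WT libraries of its batch (vertical axis, log2 scale), with bars of ± 1 SE. Filled points are DEGs, and the dashed lines mark a log2 fold change of 1 in each direction. WstfΔ and BptfΔ lie highest for Tbx3, Tfcp2l1, Prdm14 and Tcl1, and every line lies below 0 for Dppa3.

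In BptfΔ 8 of the 9 factors were higher and 1 was lower at an adjusted p under 0.01, where 21.4% of all genes were higher and 20.2% lower, and 5 were DEGs, where 13.8% of all genes were. The median log2 fold change of the 9 was 0.86 in BptfΔ, against 0.01 over all genes. In WstfΔ 7 were higher and 1 was lower (16.4% and 18.3% of all genes), 4 were DEGs (10.4% of all genes), and the median was 0.86 against -0.03. In Rsf1Δ 5 were higher and 0 lower (7.45% and 13.1% of all genes), with 0 DEGs (5.91%) and a median of 0.41. The libraries labelled Cecr2Δ had 3 higher and 3 lower (9.52% and 8.83%), 0 DEGs (3.11%) and a median of 0.19. In Acf1Δ 1 was higher and 3 were lower (15.1% and 16.7%), 1 was a DEG (4.45%), and the median was -0.16. In Tip5Δ 0 were higher and 1 was lower (2.84% and 6.23%), 1 was a DEG (2.72%), and the median was -0.01. The absolute changes of the other 8 factors in Tip5Δ stayed at or below 0.25 on the log2 scale. When the batch term was left out, so that each line was set against all 11 WT libraries, DEGs numbered 3 in BptfΔ (Tfcp2l1, Prdm14 and Dppa3) and 2 in WstfΔ (Tbx3 and Dppa3), and none of the 5 factors raised in Rsf1Δ passed an adjusted p of 0.01. That model counts the differences between WT batches as spread between libraries. In BptfΔ Klf2 (0.19, adjusted p = 0.375) and Klf5 (0.32, adjusted p = 0.238) lost their calls. In Acf1Δ the same model left Dppa3 alone past the threshold. Nr0b1 lost its call there although its value was larger, at 0.43.

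Tfcp2l1 changed most in BptfΔ. The 2 WT libraries of batch C were at 719 and 761 normalized CPM and those of BptfΔ at 2043 and 2027, more than 2 times the highest WT library of any batch (804). The log2 fold change was 1.46 ± 0.09 (SE, adjusted p = 1.49e-13). In WstfΔ the libraries were at 1189 and 1183 normalized CPM against 542 and 540 in WT of batch A (1.13 ± 0.09, SE, adjusted p = 3.8e-11), also above all 11 WT libraries. Rsf1Δ, with the same WT libraries, was at 674 and 762 (0.41 ± 0.09, SE, adjusted p = 0.000601), and its call was lost without Rsf1Δ replicate 2 (0.32, adjusted p = 0.0267). Log2 fold changes in the other 3 lines lay between -0.18 and 0.19. In Acf1Δ the replicates were far apart, at 693 and 512 normalized CPM, and the value of -0.18 became 0.02 without Acf1Δ replicate 2 and -0.42 without replicate 1 (adjusted p = 5.8e-05).

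Tbx3 rose in 3 lines. WT of batch A was at 76.8 and 77.6 normalized CPM, Rsf1Δ at 151 and 144, and WstfΔ at 220 and 213. The 4 deletion libraries lay above all 11 WT libraries, whose highest was 136. The log2 fold change was 1.49 ± 0.07 in WstfΔ (SE, adjusted p = 5.44e-15) and 0.93 ± 0.07 in Rsf1Δ (SE, adjusted p = 1.03e-10). In BptfΔ Tbx3 was at 174 and 175 normalized CPM against 67.7 and 70.3 in WT of batch C (1.34 ± 0.08, SE, adjusted p = 3.75e-14). For Tip5Δ, Acf1Δ and the Cecr2Δ label the log2 fold changes were between -0.14 and 0.18 and did not pass the threshold. For the Cecr2Δ label the value was 0.25 without Cecr2Δ replicate 3. Its adjusted p fell as low as 0.00294 over the alternatives, so a call was gained.

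Prdm14 had the largest rise of any factor. BptfΔ was at 98.0 and 89.96 normalized CPM against 30.1 and 29.2 in WT of batch C, a log2 fold change of 1.66 ± 0.07 (SE, adjusted p = 1.67e-16). WstfΔ was at 47.3 and 47.9 normalized CPM and Rsf1Δ at 39.4 and 40.4, against 25.3 and 27.1 in their WT (0.86 ± 0.07 and 0.61 ± 0.07, SE, adjusted p = 3.91e-10 and 2.26e-07). The libraries labelled Cecr2Δ were at 49.2, 50.9 and 50.5 against 32.7, 36.1 and 34.5 (0.55 ± 0.06, SE, adjusted p = 1.71e-08). In these 4 lines every library lay above the highest of the 11 WT libraries (36.1). Tip5Δ and Acf1Δ had values of 0.13 and -0.16 that did not pass.

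Tcl1 rose in WstfΔ and BptfΔ and fell in Acf1Δ. WstfΔ was at 78.8 and 72.6 normalized CPM against 37.98 and 35.5 in WT of batch A (1.04 ± 0.08, SE, adjusted p = 2.67e-11), but WT of batch E stood as high, at 76.6 and 73.8. The log2 fold change was 0.99 without WT replicate 2 of batch A and 0.98 without WstfΔ replicate 1 (adjusted p = 1.35e-08 and 1.09e-08), which ended the DEG call though not the adjusted p, and 0.54 without the batch term (adjusted p = 0.0673). BptfΔ was at 93.8 and 93.2 against 42.7 and 42.1 (1.14 ± 0.08, SE, adjusted p = 2.05e-12), above every WT library. In Acf1Δ Tcl1 was at 41.7 and 49.6 normalized CPM against the high WT values of batch E, a log2 fold change of -0.72 ± 0.07 (SE, adjusted p = 2.77e-08). Both Acf1Δ libraries were inside the WT range over all batches. In Rsf1Δ, Tip5Δ and the libraries labelled Cecr2Δ the log2 fold changes were 0.08, -0.01 and 0.20, and did not pass.

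The Krüppel-like factors did not move alike. Klf5 was at 539 and 521 normalized CPM in WstfΔ against 289 and 272 in WT of batch A (0.92 ± 0.06, SE, adjusted p = 4.02e-12), and at 456 and 469 in BptfΔ against 270 and 278 (0.76 ± 0.06, SE, adjusted p = 1.19e-10). In Acf1Δ it was at 376 and 339 against 577 and 522 in WT of batch E (-0.62 ± 0.06, SE, adjusted p = 1.69e-08). All of these lie inside the span of WT over all batches, 270–577. Klf5 was also lower in the libraries labelled Cecr2Δ (-0.23 ± 0.05, SE, adjusted p = 0.00123). Without the batch term Klf5 passed in none of these lines. It was then at 0.52 in WstfΔ (adjusted p = 0.0997), at 0.32 in BptfΔ (adjusted p = 0.238), at -0.05 in Acf1Δ (adjusted p = 0.916) and at -0.05 for the Cecr2Δ label (adjusted p = 0.879).

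Klf2 rose in Rsf1Δ, BptfΔ and the libraries labelled Cecr2Δ. It was at 166 and 151 normalized CPM in Rsf1Δ and at 109 and 112 in WstfΔ, against 108 and 95.9 in their shared WT. The log2 fold change was 0.64 ± 0.08 in Rsf1Δ (SE, adjusted p = 9.23e-07) and 0.12 ± 0.09 in WstfΔ (SE, adjusted p = 0.273), the single factor there that did not pass. BptfΔ was at 133 and 135 against 83.1 and 83.8 (0.68 ± 0.09, SE, adjusted p = 1.92e-07), within the WT range of 83.1–154. The libraries labelled Cecr2Δ, at 194, 197 and 172 against 126, 151 and 154, had 0.39 ± 0.07 (SE, adjusted p = 6.37e-05).

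Of the nuclear receptors, Nr5a2 was higher in 4 lines, none of them past 2-fold. It was at 150 and 141 normalized CPM in Rsf1Δ and at 119 and 126 in WstfΔ, against 86.7 and 82.9 in their WT (0.78 ± 0.07 and 0.53 ± 0.07, SE, adjusted p = 7.88e-10 and 5.8e-07). In BptfΔ it was at 201 and 200 against 114 and 112 (0.83 ± 0.07, SE, adjusted p = 7.7e-11). The libraries labelled Cecr2Δ had 0.32 ± 0.05 (SE, adjusted p = 5.32e-05). Without the batch term the calls were lost in WstfΔ (0.23, adjusted p = 0.256) and Rsf1Δ (0.48, adjusted p = 0.0422). The libraries of Rsf1Δ, BptfΔ and the Cecr2Δ label lay above all WT libraries, whose highest was 124. Tip5Δ was at 67.3 and 73.8 against 85.8 and 82.0, below every WT library, with -0.25 ± 0.07 (SE, adjusted p = 0.0136), and did not pass. Nr5a2 did pass when Tip5Δ was fitted with its own WT libraries alone.

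Nr0b1 was at 204 and 217 normalized CPM in BptfΔ against 120 and 114 in WT of batch C (0.86 ± 0.06, SE, adjusted p = 4.04e-12), above the 11 WT libraries (85.3–175). Acf1Δ was also above them, at 182 and 186 against 150 and 152 (0.28 ± 0.06, SE, adjusted p = 0.000341). WstfΔ was at 104 and 105 against 87.0 and 85.3 (0.28 ± 0.06, SE, adjusted p = 0.000515), within the WT range. Rsf1Δ, with the same WT libraries, was at 79.9 and 75.6, below all 11 WT libraries. It did not pass (-0.15 ± 0.06, SE, adjusted p = 0.0713). The libraries labelled Cecr2Δ were at 150, 144 and 136 against 162, 175 and 168 (-0.23 ± 0.05, SE, adjusted p = 0.000552). When the batch term was left out, the values of WstfΔ and the Cecr2Δ label changed sign, to -0.38 (adjusted p = 0.203) and 0.07 (adjusted p = 0.802).

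Dppa3 was the single factor with DEG calls in the downward direction. WT libraries held 75 to 149 counts of it, or 2.80–5.72 normalized CPM. The 2 BptfΔ libraries held 5 and 4 counts against 83 and 75 in WT of batch C, or 0.30 and 0.23 normalized CPM against 4.36 and 4.38. The 2 WstfΔ libraries held 9 and 3 counts against 100 and 88 in WT of batch A, or 0.65 and 0.22 normalized CPM against 3.99 and 3.79. Both lines were thus close to the floor of detection, where 1 count more or less moves the fold change. The log2 fold change was -4.02 ± 0.39 in BptfΔ (SE, adjusted p = 2.1e-09) and -3.14 ± 0.37 in WstfΔ (SE, adjusted p = 1.1e-07). Without WstfΔ replicate 1 or 2 the latter was -4.12 or -2.57.

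Acf1Δ held 21 and 39 Dppa3 counts against 133 and 129, or 0.78 and 1.38 normalized CPM against 4.90 and 4.78 (-2.15 ± 0.25, SE, adjusted p = 1.24e-07). The BptfΔ, WstfΔ and Acf1Δ libraries and those labelled Cecr2Δ all lay below the lowest of the 11 WT libraries. Tip5Δ held 43 and 72 counts against 131 and 149, or 1.88 and 2.995 normalized CPM against 5.02 and 5.72 (-1.13 ± 0.22, SE, adjusted p = 0.000443). That call was lost without Tip5Δ replicate 1 (-0.84, adjusted p = 0.0344), without WT replicate 2 of batch B (-1.03, adjusted p = 0.0119) and without the batch term (-0.83, adjusted p = 0.0643).

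In the libraries labelled Cecr2Δ Dppa3 was at 2.06, 1.93 and 2.40 normalized CPM against 3.99, 2.80 and 3.94 (-0.75 ± 0.18, SE, adjusted p = 0.00204). The call was lost without WT replicate 1 (-0.65, adjusted p = 0.0155) or 3 of batch D (-0.68, adjusted p = 0.0129) or without Cecr2Δ replicate 2 (-0.67, adjusted p = 0.015). Rsf1Δ was at 2.79 and 3.05 against 3.99 and 3.79 (-0.41 ± 0.22, SE, adjusted p = 0.172) and did not pass. The 13 tested genes within 1 Mb of Dppa3 had a median log2 fold change of 0.08 in BptfΔ, -0.14 in WstfΔ and -0.08 in Acf1Δ, and 8, 5 and 5 of them passed the threshold in either direction, where 41.6%, 34.7% and 31.8% of all genes did. The median of all 731 tested genes of chromosome 6 was -0.17 in BptfΔ, -0.05 in WstfΔ and 0 in Acf1Δ.

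**Figure D3:**
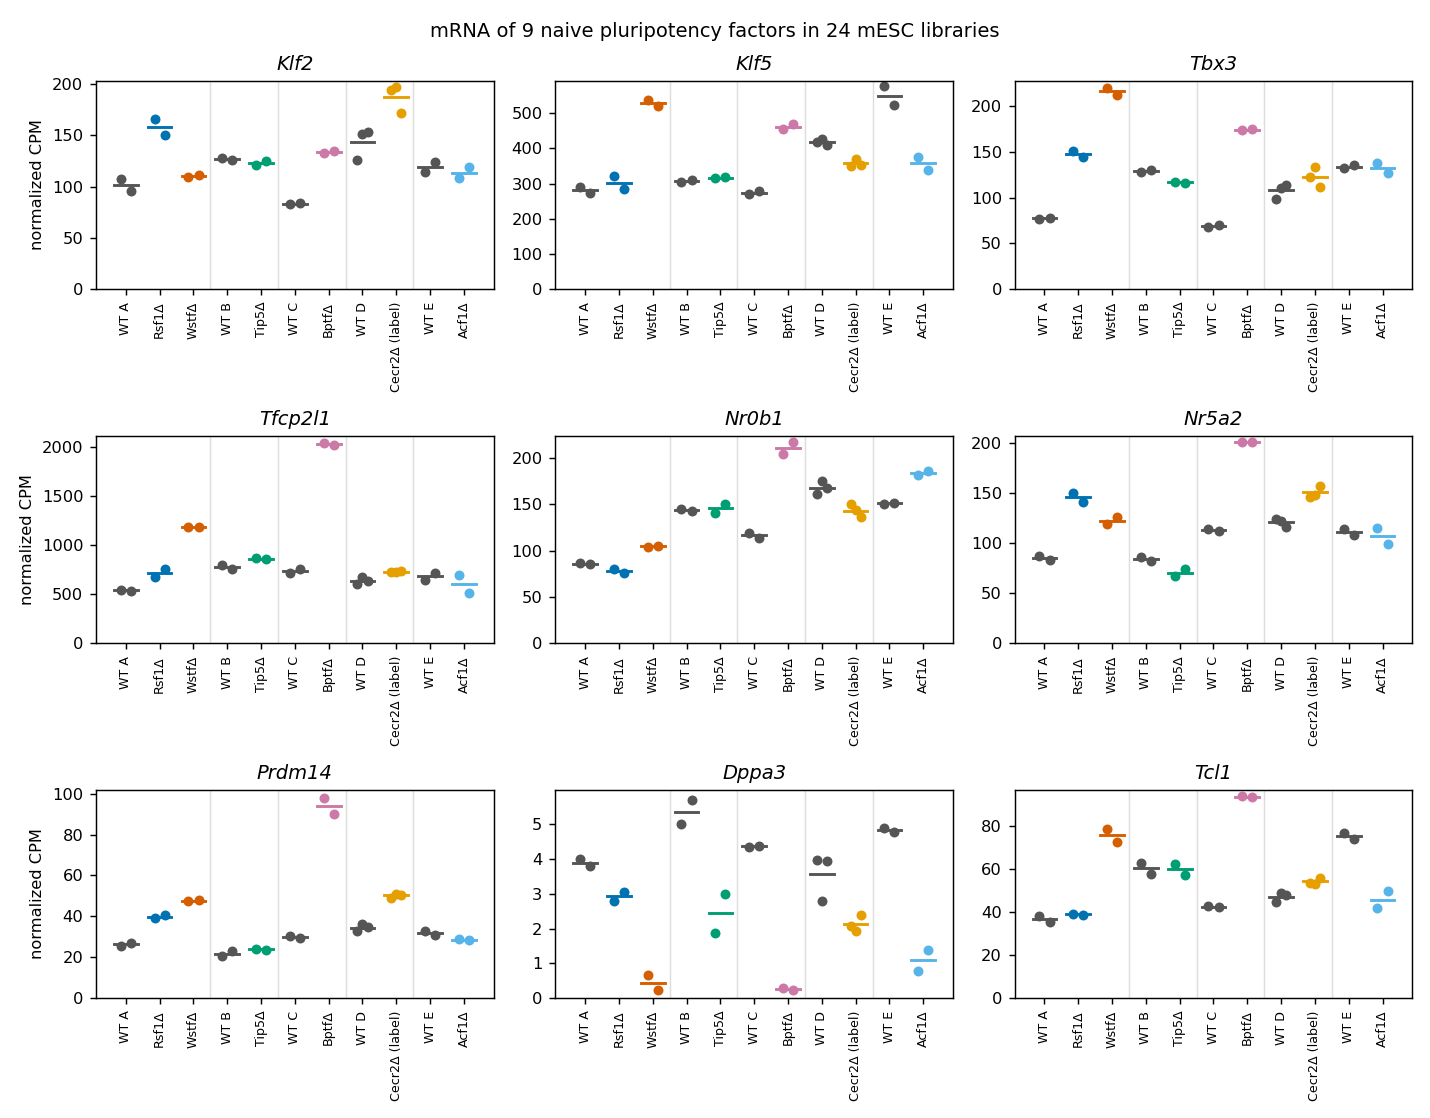
Level of each factor in normalized CPM (vertical axes, from 0) in the 24 libraries. Points are libraries, horizontal lines group means, WT libraries are grey, and vertical lines separate the 5 batches. BptfΔ stands above every WT group for Tfcp2l1, Prdm14, Nr5a2 and Nr0b1, while Dppa3 is near 0 in WstfΔ and BptfΔ.

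Two-cell-like cells, a rare fraction of mESC cultures, are marked by Zscan4c, Zscan4d, Zfp352 and Tcstv3, and their summed level was lower beside Dppa3 in some lines. It was 2.16–2.47 normalized CPM in WT of batch C against 0.06–0.12 in BptfΔ, 2.74–4.02 against 0.25–0.26 in Acf1Δ, 1.34–1.80 against 0.13–0.22 in Tip5Δ and 1.6–1.94 against 0.14–0.88 in WstfΔ. It was higher in Rsf1Δ (3.69–3.91) and in the libraries labelled Cecr2Δ (1.51–2.63 against 0.52–0.99). Dppa3 passed as lower for the Cecr2Δ label and did not pass in Rsf1Δ. Of these markers 2 were tested, and both passed as lower in BptfΔ and Acf1Δ, 1 in Tip5Δ and 0 in WstfΔ, where 20.2%, 16.7%, 6.23% and 18.3% of all genes were lower. Zscan4d (1.54) passed as higher in Rsf1Δ, and Zscan4c (2.07) and Zscan4d (1.34) for the Cecr2Δ label, where 7.45% and 9.52% of all genes were higher. Zscan4c and Zfp352 had 0 counts in BptfΔ, and Zfp352 and Tcstv3 had 0 counts in Tip5Δ. The part of such cells in the Dppa3 values was not tested. Of 3 germ cell markers (Ddx4, Dazl and Sycp3), with which Dppa3 is also associated, 3 were lower in BptfΔ and 2 in Acf1Δ (20.2% and 16.7% of all genes). In WstfΔ 1 was lower and 1 higher (18.3% and 16.4% of all genes), as in Tip5Δ (6.23% and 2.84%). In Rsf1Δ 1, Dazl, was higher and 0 were lower (7.45% and 13.1%), and 0 passed for the Cecr2Δ label.

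Because WstfΔ and Rsf1Δ share their WT libraries, they were also compared directly. All 9 factors differed at an adjusted p under 0.01, where 33.3% of all genes did. Higher in WstfΔ were Tcl1 (log2 difference 0.96 ± 0.08, SE, adjusted p = 1.87e-10), Klf5 (0.81 ± 0.06), Tfcp2l1 (0.72 ± 0.09), Tbx3 (0.55 ± 0.07), Nr0b1 (0.43 ± 0.06) and Prdm14 (0.25 ± 0.07). Higher in Rsf1Δ were Dppa3 (-2.73 ± 0.39, SE, adjusted p = 2.7e-06), Klf2 (-0.52 ± 0.08) and Nr5a2 (-0.25 ± 0.07). Klf5 and Tcl1 were thus raised in WstfΔ and near WT in Rsf1Δ, and Klf2 the reverse.

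The factors were set beside 20 other genes of the naive network, such as Klf4, Esrrb, Zfp42 and Stat3. Of these, 12 were higher and 3 lower in BptfΔ at an adjusted p under 0.01, 11 and 1 in WstfΔ, 13 and 2 in Rsf1Δ, 9 and 5 in Acf1Δ, 1 and 3 in Tip5Δ, and 9 and 1 for the Cecr2Δ label. The shares higher and lower over all genes were 21.4% and 20.2% in BptfΔ, 16.4% and 18.3% in WstfΔ, 7.45% and 13.1% in Rsf1Δ, 15.1% and 16.7% in Acf1Δ, 2.84% and 6.23% in Tip5Δ, and 9.52% and 8.83% for the Cecr2Δ label. The median log2 fold change of the 20 genes was 0.36 in BptfΔ, 0.23 in WstfΔ, 0.31 in Rsf1Δ, 0.19 in Acf1Δ, 0.16 for the Cecr2Δ label and -0.10 in Tip5Δ, where the medians of all genes lay between -0.03 and 0.01. Klf4, the third of the Krüppel-like factors, rose by 1.30 ± 0.09 in WstfΔ (SE, adjusted p = 3.1e-12) and by 1.14 ± 0.09 in BptfΔ (SE, adjusted p = 3.5e-11). Esrrb, an orphan nuclear receptor, rose by 1.19 ± 0.06 in BptfΔ (SE, adjusted p = 8.24e-15), and Gbx2, a homeobox target of STAT3, by 1.07 ± 0.08 in Acf1Δ (SE, adjusted p = 3.54e-11).

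Of 16 genes of the exit from naive pluripotency and of the formative state, 9 were lower and 4 higher in BptfΔ, and also 9 and 4 in WstfΔ, with medians of -1.85 and -0.74. Over all genes, 20.2% were lower and 21.4% higher in BptfΔ, and 18.3% and 16.4% in WstfΔ. The 4 higher in both lines were Etv4, Etv5, Foxd3 and Tcf15, named here after their values were seen, and Tcf15 was a DEG in WstfΔ (1.27 ± 0.13, SE, adjusted p = 4.04e-09). The genes named for BptfΔ by their fitted change were Lef1, a Wnt effector (-4.64 ± 0.40, SE, adjusted p = 2.16e-10), with at most 5 counts in a BptfΔ library, Pou3f1, a neural POU factor (-2.96 ± 0.17, adjusted p = 7.52e-14), and Dnmt3a, a de novo DNA methyltransferase (-2.63 ± 0.07, adjusted p = 2.32e-21). In WstfΔ they were Lef1 (-3.80 ± 0.32, at most 9 counts), the growth factor Fgf5 (-2.37 ± 0.46, at most 6 counts) and the zinc finger gene Zic2 (-1.96 ± 0.23). Folds of Lef1 and Fgf5 rest on levels near the floor of 3 counts, and their order among the falls is uncertain. Rsf1Δ had 6 higher and 5 lower (7.45% and 13.1% of all genes) and a median of 0.06, and Fgf5 was its single DEG (-2.10 ± 0.38). Acf1Δ had 5 higher and 6 lower (15.1% and 16.7%), with a median of -0.04 and falls of Zic2 (-1.79 ± 0.20) and Zic5 (-1.50 ± 0.12). Dnmt3a, named here after its value was seen, was a DEG in the other direction in Acf1Δ (1.15 ± 0.06, SE, adjusted p = 5.57e-14). Fgf5 was also a DEG there, at 0.0726 normalized CPM against 0.609 in WT, with at most 2 counts in an Acf1Δ library, and no fold is given for it. In Tip5Δ 0 were higher and 2 lower (2.84% and 6.23%), with a median of 0.05. The libraries labelled Cecr2Δ had 8 higher and 2 lower (9.52% and 8.83%), with a median of 0.41 and with Fgf5 at 1.52 ± 0.38 (SE, adjusted p = 0.00344).

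**Figure D4:**
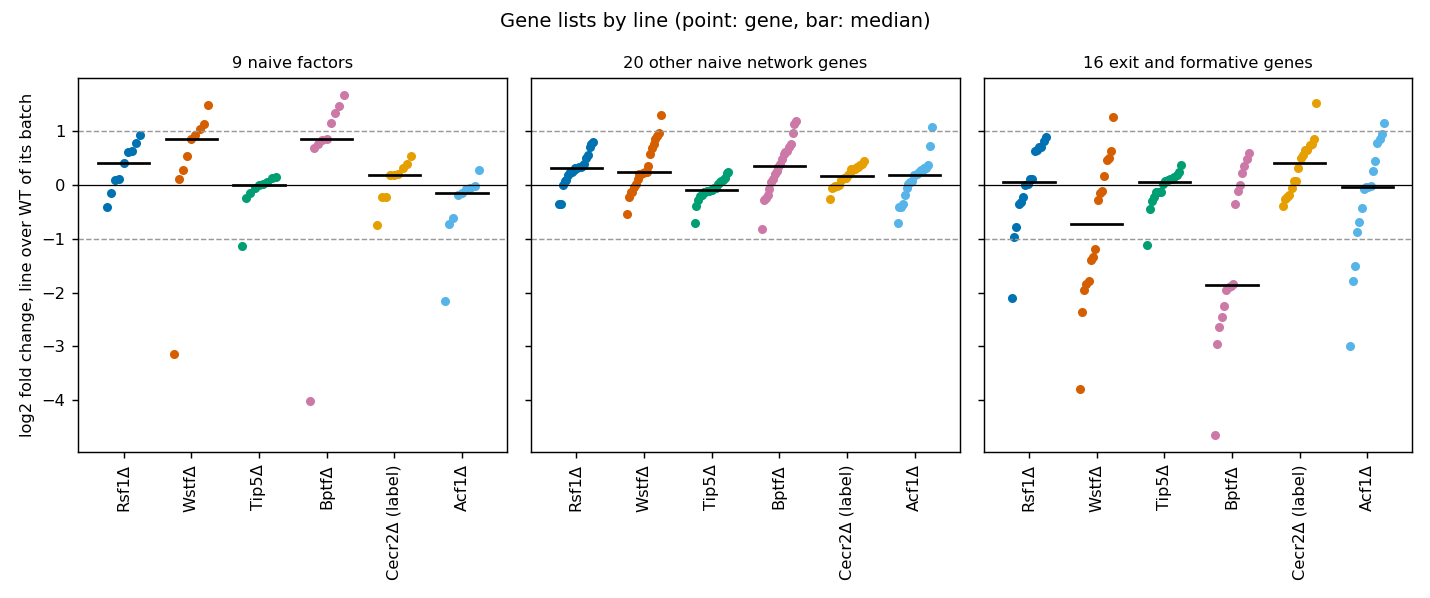
Log2 fold change of single genes over WT of the same batch (vertical axis, log2 scale) for the 9 factors, 20 other naive network genes and 16 exit and formative genes. Points are genes sorted by value within a line and black bars are medians. The median of the exit and formative genes is -1.85 in BptfΔ and -0.74 in WstfΔ, and the lowest points of the 9 factors are Dppa3.

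As a description over the 24 libraries, which share batches and WT controls, the log2 level of Nr5a2 and Prdm14 had the highest Pearson correlation of any pair of the factors (r = 0.91), and Dppa3 had a negative r with each of the other 8, from -0.09 with Klf2 to -0.73 with Tfcp2l1. Among all genes tested, the pattern of Tfcp2l1 was most like those of Ctnnb1, which encodes β-catenin, and Atmin (r = 0.96 for each). That of Prdm14 was most like A2m and Tmem151b (0.94 for each), that of Nr5a2 like Pias2 (0.94) and Lonrf2 (0.93), and that of Tcl1 like Hk1, a hexokinase, and Lrch1 (0.93 for each). Tbx3 was most like Tmc8 and Mad2l2 (0.91 for each), and Klf5 like Sncg (0.90) and Dnajc4 (0.87). Dppa3 was most like Nlrp4c (0.89) and Pnma5 (0.88). Klf2, with Bicral (0.86) and Agpat1 (0.84), and Nr0b1, with Ppp1cc (0.86) and Cluap1 (0.83), had the weakest of these best matches.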

How the data were processed

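RNA was sequenced in 24 libraries of mESCs, 11 WT and 13 of 6 deletion lines, in 5 batches. The authors aligned reads to mm10 with QuasR (spliced mode, Rhisat2) and deposited raw counts per gene of the UCSC knownGene annotation, with a gene width, without normalization. The submitters' processing notes also name bcl2fastq 2.17 and HISAT2. The labels name a stranded library kit and the paper's methods an unstranded one, and how overlapping genes or repeated reads were counted is not given in the sources used here. Of 24594 gene IDs, 24570 were matched to RefSeq (GRCm38.p6).

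From the deposited counts, R 4.3.3 and edgeR 4.0.16 filtered genes with filterByExpr by genotype (15682 left), scaled libraries by TMM and fitted the quasi-likelihood model (legacy form) with batch and genotype over all 24 libraries. P-values were adjusted by the Benjamini-Hochberg method over all genes tested. Thresholds were an adjusted p of 0.01 and, for DEGs, an absolute log2 fold change over 1. SE was taken from the log2 fold change and F, as the size of the first over the root of the second. Levels are normalized CPM, per kilobase of width between genes. Correlations used log2(normalized CPM + 0.5). Total counts were 13.4 to 36.7 M (mega) per library. Floors cover counting error only. The steps were tested on simulated data.

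Group, batch and replicate number came from the labels. Same-numbered libraries of a batch did not deviate together (r from -0.157 to 0.049 over 13 pairs). All 9 factors were named. Of the naive network and exit lists at most the 3 DEGs with the largest absolute change per line were named, beside 2 best-correlated genes per factor and the targeted genes. Cell type markers are named as members of their lists. Zfp42, Stat3, Otx2 and Dnmt3b are named as examples of their lists. The factors, lists and tests were chosen with earlier results of these data known. Alternatives were the newer quasi-likelihood fit, DESeq2 1.42.0, other size factors, other filters, own WT libraries alone, no batch term, a replicate block, no fold-change minimum and leaving out each library.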

Additional observations from a re-analysis of the deposited data

How the results depend on the processing

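Most of the lost calls came from 1 alternative. In a model without batch, which sets each line against all 11 WT libraries, the factors past an adjusted p of 0.01 numbered 0 in Rsf1Δ, 4 in WstfΔ, 0 in Tip5Δ, 1 in Acf1Δ, 7 in BptfΔ and 4 for the Cecr2Δ label, where Klf5 went to -0.05 (adjusted p = 0.879), and the DEGs 2 in WstfΔ, 0 in Tip5Δ, 3 in BptfΔ and 1 (Dppa3) in the libraries labelled Cecr2Δ. In that model Tcl1 was at 0.54 in WstfΔ (adjusted p = 0.0673) and 0.85 in BptfΔ, and Tbx3 at 0.75 in BptfΔ. Signs changed there for Klf5 (-0.29) and Tcl1 (-0.42) in Rsf1Δ, Klf2 (-0.092) and Nr0b1 (-0.38) in WstfΔ, Klf2 (0.0614), Klf5 (-0.23), Tbx3 (0.17), Prdm14 (-0.30) and Tcl1 (0.21) in Tip5Δ, Nr0b1 (0.0722) in the Cecr2Δ label, and Tbx3 (0.35) and Nr5a2 (0.0396) in Acf1Δ. Of all values that changed sign, those of Nr0b1 in WstfΔ and the Cecr2Δ label had passed the threshold.

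Leaving out 1 library gave 3 to 4 DEGs in WstfΔ. With no fold-change minimum, the factors called were 5 in Rsf1Δ, 8 in WstfΔ, 9 in BptfΔ, 6 in the Cecr2Δ label and 4 in Acf1Δ. In Tip5Δ, 2 factors passed with library size alone as scaling and 3 with its own WT libraries alone (Tfcp2l1, Nr5a2 and Dppa3). Leaving out 1 library gave 0 to 1, for DEGs also 0 to 1. Values near 0 changed sign for Nr0b1 in Tip5Δ with library size alone (-0.024), for Tcl1 in Tip5Δ with DESeq2 (0.0025), RLE factors (0.0025), no filter (0.0071) and a scaling without 145 genes high in WT of batch C, chosen after seeing the data (0.0023), and for Tbx3 in Acf1Δ with no filter (0.0036) or own WT libraries alone (0.012). Leaving out 1 library gave a range of -0.0252 to 0.0612 for Nr0b1 and -0.0708 to 0.0523 for Tcl1 in Tip5Δ, and of -0.0789 to 0.042 for Tbx3, -0.415 to 0.0217 for Tfcp2l1 and -0.164 to 0.0542 for Nr5a2 in Acf1Δ. With the replicate block no call changed, and Dppa3 in Tip5Δ was at -1.15. Over the alternatives of the 54 log2 fold changes, 665 values kept direction and side of the threshold, 22 lost and 7 gained the call, and 26 changed sign. Depth limits Dppa3, with 3 to 9 counts per library in WstfΔ and BptfΔ.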

Other observations

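Nr0b1 lies on chromosome X, where the 552 genes tested had a median log2 fold change of -0.22 in BptfΔ, -0.24 in WstfΔ and -0.15 in Acf1Δ. Nr0b1 was higher than WT in each of these 3 lines, at 0.86, 0.28 and 0.28. Its 4 tested neighbours within 1 Mb had medians of -0.19, -0.02 and -0.84, and 1, 0 and 3 of them passed an adjusted p of 0.01 in either direction, where 41.6%, 34.7% and 31.8% of all genes did. Beside Prdm14 in BptfΔ, 6 tested neighbours had a median of 0.18 and 3 of them passed. The 10 neighbours of Tfcp2l1 had a median of -0.02 in BptfΔ and -0.08 in WstfΔ.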
